A study of Mus musculus with 31 samples.

Results

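The genes described here encode the channel through which proteins enter the endoplasmic reticulum (ER) and the membrane proteins that sit beside it: the Sec61 subunits Sec61a1, Sec61b and Sec61g, the partners Sec62 and Sec63, the translocon-associated protein (TRAP) subunits Ssr1, Ssr2, Ssr3 and Ssr4, and Tram1. They were taken by name, and each gene was represented by 1 probe set, the one with the highest mean over all arrays among those that the array annotation gives to that gene alone. Of the 10 genes, 9 were measured among 17097 genes with a probe set of their own. The array annotation used here assigned no probe set to Sec61g, so it has no value below.

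The Sec61 complex is the protein-conducting pore of the ER membrane. A ribosome that makes a secreted or membrane protein is brought to it by the signal recognition particle, and the growing chain passes through the pore, loses its signal peptide to signal peptidase and is bound by lumenal chaperones. Sec61a1 forms the pore and Sec61b is a small subunit attached to it. TRAP, a complex of Ssr1 to Ssr4, stands beside the pore and helps certain signal sequences to engage it, and Tram1 contacts chains as they enter. Sec62 and Sec63 serve proteins that enter late or slowly, Sec63 by bringing the chaperone BiP to the pore. Hepatocytes secrete most plasma proteins and depend on this machinery. IRE1α, encoded by Ern1, is an ER stress sensor that splices Xbp1 mRNA, and the spliced form encodes a transcription factor that acts on many genes of the secretory pathway. IRE1α can also cleave other mRNAs at the ER, a process called RIDD.

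Liver RNA of male mice was hybridised to 31 arrays in 8 groups, and the series set out to find mRNAs cut by IRE1α and genes driven by XBP1. The Xbp1 experiment compared 4 Xbp1 ko livers with 4 WT littermate livers, all C57BL/6, fed and 14 weeks old. The siRNA experiment used Xbp1 ko C57BL/6 mice aged 9 weeks, 4 labelled as injected with luciferase siRNA and 4 with IRE1 siRNA, and sampled 8 days later, so both its groups lacked Xbp1. All mice of the Ire1 experiment, WT and Ire1 ko, were 14 weeks old. Its WT littermates of Ire1 ko mice were untreated (n = 4) or given tunicamycin at 2 mg/kg for 6 hours (n = 4). Its Ire1 ko mice were untreated (n = 3) or given the same tunicamycin dose (n = 4). Tunicamycin blocks N-glycosylation and thereby loads the ER with unfolded protein. The labels give C57BL/6 for the WT mice of that experiment and a mixed strain for its Ire1 ko mice, so strain and genotype cannot be told apart there. Which promoter or Cre drove the deletions is not given in the sources used here. Replicates within a group are labelled biological without naming animals, and the p-values measure the spread between these samples. Because whole liver was measured, fewer cells of a type and less RNA per cell cannot be told apart.

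The values are probe set intensities on a linear scale, with a floor of 3, a median of 5 on each array and a brightest value of 9367 to 24483. Between 19.8% and 23% of probe sets reached an intensity of 16 on an array, and within-group correlations lay between 0.984 and 0.993. The Xbp1 probe set fell from 943.8 ± 140 in WT littermates to 470 ± 80.3 in Xbp1 ko (SD, n = 4 each). Ern1 stood at 149.2 ± 36.6 (SD, n = 4) without treatment in WT and at 150.3 ± 2.52 (SD, n = 3) in Ire1 ko, and this probe set does not check that knockout, because the sources used here do not say which exons were deleted. In the siRNA experiment Ern1 read 21, 18, 23 and 35 in the arrays labelled luciferase siRNA and 169, 184, 236 and 230 in those labelled IRE1 siRNA. Ern1 thus goes against the labels of that experiment, and every direction drawn from it below is as labelled. All 9 measured genes passed the filter on dim probe sets in each fit. Hepatocyte markers were present throughout, with 6 of 6 reaching 16 in every group.

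Promoters are shown because several of these genes moved together and XBP1 and ATF6 are known to bind short motifs near such genes. RefSeq windows for build GRCm38.p6, from 250 bases before the annotated start to 50 after it, were found for 7 of the 10 genes, and none for Sec61a1, Ssr2 or Tram1. Both strands were searched, and the motifs overlap: the core holds the CCACG that also ends ERSE and ERSE-II, and the reverse strand of UPRE holds it too. The core GCCACGT was found in 3 of the 7 windows, against 2.58% of the 32851 promoter windows searched. It lay 74 and 27 bases before the start of Ssr1, 191 before that of Ssr3 and 23 before that of Sec63, counted to its first base. ERSE, ERSE-II and the 8-base UPRE (TGACGTGG) were found in 0 of 7, against 0.119%, 0.0365% and 0.676% of all windows. The CCAAT box, of 5 bases, was in 3 of 7 windows, those of Ssr3, Sec63 and Sec61g, against 37.4% of all. A match is a description of letters, not of a bound site. The 250 bases before the start are printed 5′ to 3′ for the 3 genes with the core, its letters in capitals, for Sec61b, which fell furthest on loss of Xbp1 or Ire1, and for Sec62, which moved opposite to the others after tunicamycin in WT liver.
Ssr1, chr13:37994209-37994458, minus strand: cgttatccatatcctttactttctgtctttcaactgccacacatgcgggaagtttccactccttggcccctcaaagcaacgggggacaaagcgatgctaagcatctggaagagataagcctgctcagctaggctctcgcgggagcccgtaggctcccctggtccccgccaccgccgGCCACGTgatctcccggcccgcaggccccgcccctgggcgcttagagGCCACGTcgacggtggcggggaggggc
Ssr3, chr3:65392554-65392803, minus strand: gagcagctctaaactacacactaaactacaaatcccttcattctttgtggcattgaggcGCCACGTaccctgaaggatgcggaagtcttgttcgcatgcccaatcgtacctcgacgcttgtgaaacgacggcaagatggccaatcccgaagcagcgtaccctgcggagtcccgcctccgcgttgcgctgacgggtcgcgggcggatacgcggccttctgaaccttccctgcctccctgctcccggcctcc
Sec63, chr10:42761246-42761495, plus strand: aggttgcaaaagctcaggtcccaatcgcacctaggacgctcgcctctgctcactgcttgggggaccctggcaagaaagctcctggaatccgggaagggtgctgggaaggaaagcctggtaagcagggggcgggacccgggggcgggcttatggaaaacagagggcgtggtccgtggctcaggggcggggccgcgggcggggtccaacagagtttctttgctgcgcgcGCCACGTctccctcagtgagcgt
Sec61b, chr4:47474411-47474660, plus strand: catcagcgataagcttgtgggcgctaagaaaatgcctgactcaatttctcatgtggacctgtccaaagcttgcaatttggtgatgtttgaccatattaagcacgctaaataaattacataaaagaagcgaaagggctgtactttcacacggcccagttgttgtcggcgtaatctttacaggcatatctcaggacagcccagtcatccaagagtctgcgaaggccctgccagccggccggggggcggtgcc
Sec62, chr3:30792626-30792875, plus strand: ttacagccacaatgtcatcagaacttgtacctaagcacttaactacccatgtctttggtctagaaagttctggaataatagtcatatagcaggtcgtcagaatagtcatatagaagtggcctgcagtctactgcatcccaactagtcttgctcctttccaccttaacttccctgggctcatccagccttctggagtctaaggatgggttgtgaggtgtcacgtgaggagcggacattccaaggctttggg

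Across the 8 groups, the tunicamycin-treated WT livers held the highest level of 8 of the 9 genes and the lowest level of the ninth, Sec62. For those 8 genes every tunicamycin-treated WT array lay above every array of each other group. This holds for the probe sets used. A further Sec63 probe set was highest in untreated WT of the Xbp1 experiment, at 108.5 against 75 in tunicamycin-treated WT. Sec61b, Ssr1, Ssr4 and Tram1 were lower on every array of the 5 groups that carried either knockout, tunicamycin included, than on every array of the 3 WT groups. Leaving out tunicamycin, Sec61a1 and Ssr3 joined them, so that for 6 genes all arrays of the 4 untreated or siRNA-injected deficient groups lay below all untreated WT arrays. A dimmer Sec61a1 probe set did not show this. Its mean was 54.25 both in Xbp1 ko and in untreated WT of the Ire1 experiment. Xbp1 ko and Ire1 ko arrays overlapped for 9 of 9 genes on the probe sets used. On some further probe sets the means were further apart. Sec61a1 stood at 54.25 in Xbp1 ko against 21.33 in Ire1 ko, and at 25.5 against 11.67. A further Sec63 probe set stood at 66.5 against 26.67, while another was close, at 40.25 against 40.33. The untreated WT groups of the 2 experiments overlapped for 8 of 9, Sec61a1 being the exception. Whether all arrays were normalised in one run is not stated in the sources used here, so levels set across experiments carry that limit. The share of all genes with the patterns in this paragraph was not computed, so these counts describe the listed genes only.

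**Figure D1:**
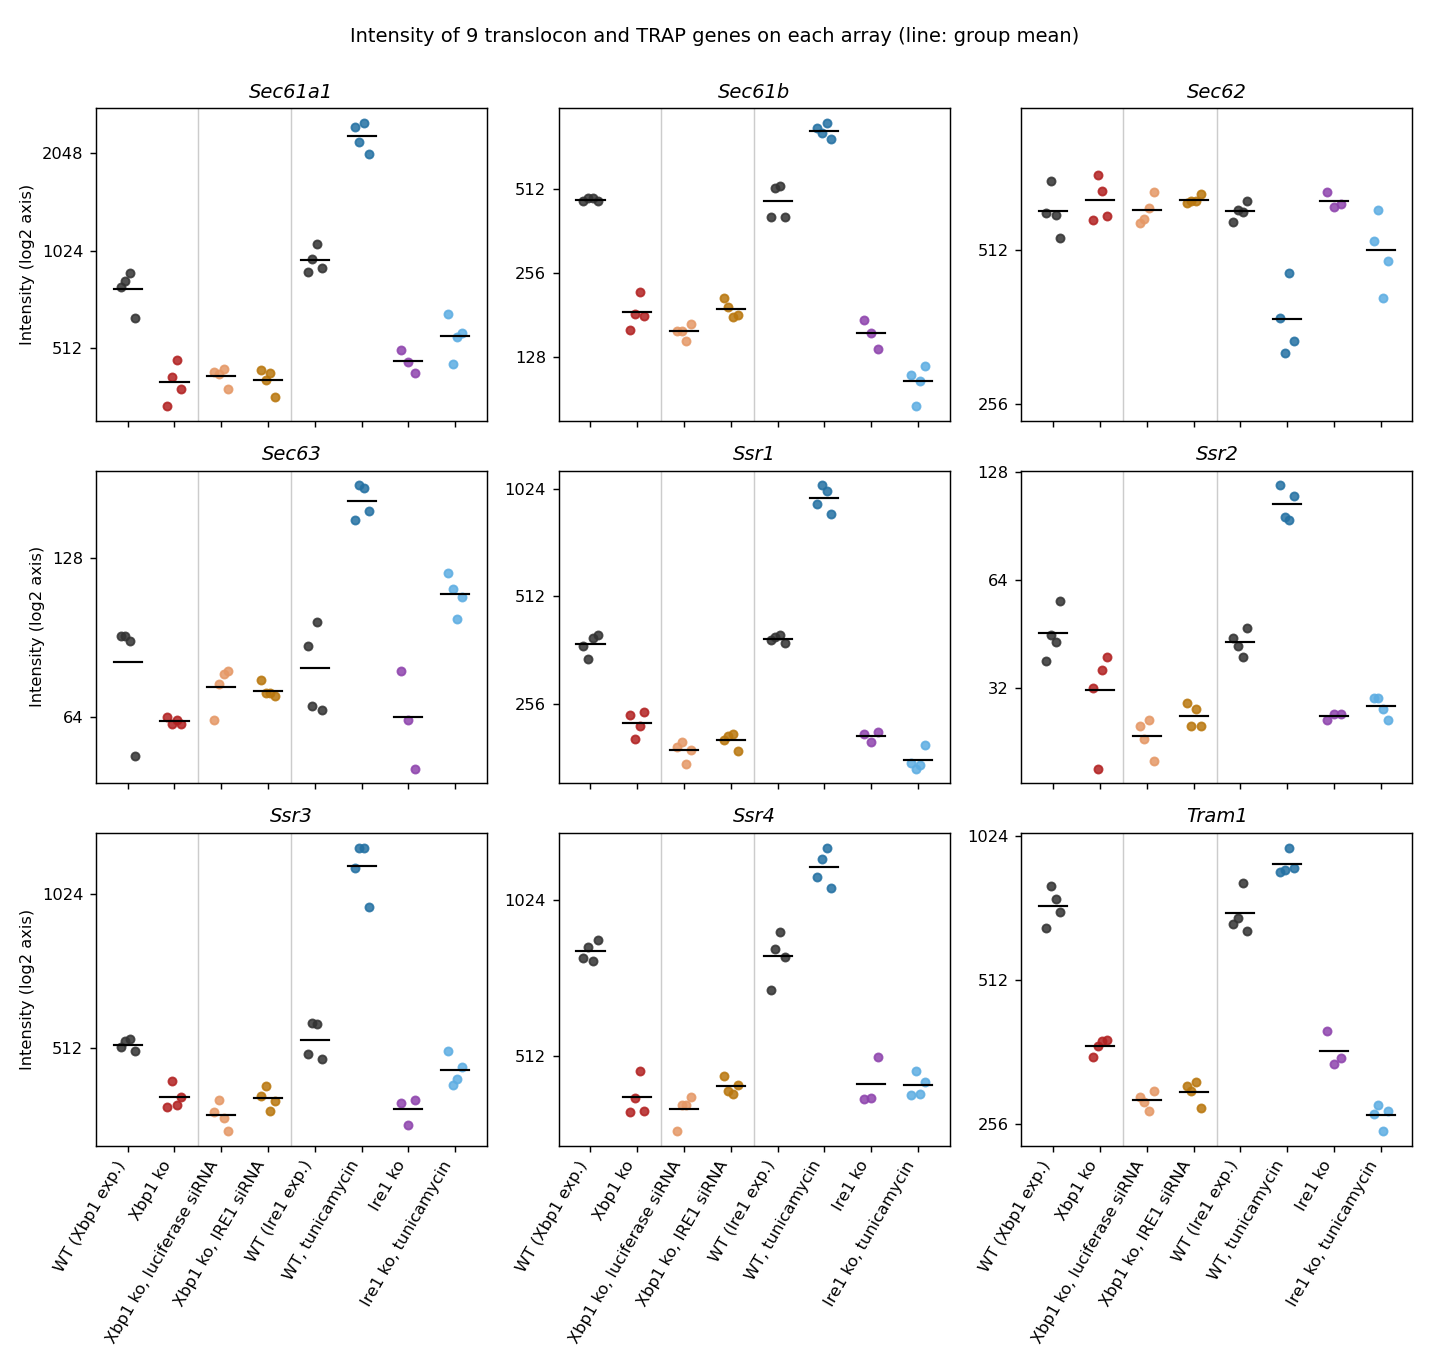
Probe set intensity (log2 axis) of 9 translocon and TRAP genes on each of 31 arrays in 8 groups, with a line at each group's mean and grey lines between the 3 experiments. Tunicamycin-treated WT arrays stand above all others for 8 genes, while for Sec62 they have the lowest mean, 374.5, and overlap treated Ire1 ko.

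Tunicamycin-treated WT, then untreated WT, headed the order of group means for most of these genes, and neighbours lower in the order mostly overlapped. Sec61a1, the pore subunit, stood at 2312 ± 230 (SD, n = 4) in tunicamycin-treated WT, 955 ± 83.2 and 780.8 ± 104 in the untreated WT groups of the Ire1 and Xbp1 experiments, then 559.2 ± 79.7 in treated and 467 ± 38 in untreated Ire1 ko, and from 420.2 to 402.2 in the 3 Xbp1 ko groups. From the WT group of the Xbp1 experiment downwards, each group overlapped the next. Sec61b, the small subunit, ran from 829.2 ± 49.2 in tunicamycin-treated WT through 469.2 ± 7.27 and 463.2 ± 65.6 in untreated WT to between 190 and 155.3 in the deficient groups without tunicamycin, and treated Ire1 ko stood apart at the bottom with 104.8 ± 14.4. Ssr1 had the same bottom group, at 177.8 ± 12.5, overlapping the group labelled luciferase siRNA at 189.2 ± 11.6. On the second Ssr1 probe set untreated Ire1 ko was lowest instead, at 63 against 66.75 in treated Ire1 ko. Tram1 had 3 tiers below WT: Xbp1 ko and Ire1 ko at 373.2 ± 13.7 and 364.3 ± 32.1, then the siRNA groups at 299.2 ± 16.5 (IRE1) and 287.5 ± 11.4 (luciferase), which overlapped treated Ire1 ko at 267.5 ± 14.5. It was the one gene with both siRNA groups wholly below the uninjected Xbp1 ko group, and these groups differ in age and injection. Sec62 and Sec63 had few separated neighbours. For Sec62 every group overlapped the next one, and Sec63 separated only tunicamycin-treated WT (164.5 ± 12.4) and treated Ire1 ko (109.5 ± 9.15) from the rest, which lay between 81.25 and 62.75.

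In Xbp1 ko liver 6 of the 9 genes fell against WT littermates and 0 rose. They were both measured Sec61 subunits, 3 of the 4 TRAP subunits and Tram1, and the level in Xbp1 ko was between 0.392 and 0.788 of WT. The background in this comparison was 2.07% of 14008 genes called lower by limma (adjusted p below 0.05) and 0.642% called higher. The median log2 change of the 9 genes was -0.73, that of all genes tested 0.01. The same 6 genes had all 4 Xbp1 ko arrays below all 4 WT arrays, a separation seen in 3.73% of all genes tested.

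Sec61b, the small pore subunit, read 462, 476, 475 and 464 in WT and 160, 182, 219 and 179 in Xbp1 ko. Its log2 change was -1.35 (SE 0.09; limma adjusted p = 0.000214), the largest of the 9. Sec61a1, which lines the pore, read 789, 826, 874 and 634 in WT and 339, 417, 470 and 383 in Xbp1 ko. The highest Xbp1 ko array stayed below the lowest WT array, and the log2 change was -0.96 (SE 0.13; limma adjusted p = 0.00676).

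Sec62 and Sec63, the partners for late-entering chains, did not pass the test. Sec62 read 605, 696, 598 and 540 in WT and 585, 715, 668 and 597 in Xbp1 ko, overlapping throughout, with a log2 difference of 0.07 (95% interval -0.14 to 0.29; limma adjusted p = 0.782). Sec63 read 91, 91, 89 and 54 in WT and 64, 62, 63 and 62 in Xbp1 ko, so that a single WT array, replicate 4, lay below the Xbp1 ko arrays. The log2 difference was -0.34 (95% interval -0.74 to 0.06; limma adjusted p = 0.448). Without that array it was -0.53 with an adjusted p of 0.00302.

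Among TRAP subunits, Ssr4 (TRAPδ) read 789, 831, 780 and 856 in WT and 399, 425, 479 and 401 in Xbp1 ko. Its log2 change was -0.94 (SE 0.07; limma adjusted p = 0.000336), and no array overlapped. Ssr1 (TRAPα) read 370, 342, 390 and 398 in WT and 238, 203, 222 and 242 in Xbp1 ko. This was a log2 change of -0.73 (SE 0.08; limma adjusted p = 0.00231). Ssr3 (TRAPγ) changed least of the 6, from 519.5 ± 12.8 (SD, n = 4) to 409.5 ± 22.2 (SD, n = 4), or -0.34 on the log2 scale (SE 0.05; limma adjusted p = 0.013), with WT arrays at 505 to 533 and Xbp1 ko arrays at 392 to 441. Ssr2 (TRAPβ) was the dimmest probe set, near the range where whole-number rounding matters. It read 38, 45, 43 and 56 in WT and 32, 19, 36 and 39 in Xbp1 ko, and the overlapping values gave a log2 difference of -0.57 (95% interval -1.11 to -0.03; limma adjusted p = 0.325).

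Tram1, which meets entering chains, read 658, 806, 758 and 711 in WT and 354, 373, 382 and 384 in Xbp1 ko. The groups were far apart, with a log2 change of -0.97 (SE 0.07; limma adjusted p = 0.000282). Among hepatocyte markers 2 of 6 were lower in Xbp1 ko, Apoa1 (-0.28) and Cyp2e1 (-0.32), and the summed intensity of the list was 35110 to 37980 in WT and 31935 to 34760 in Xbp1 ko. Their part in the result was not tested.

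In untreated Ire1 ko liver 7 of the 9 genes fell and 0 rose, to between 0.336 and 0.732 of WT. Both Sec61 subunits, all 4 TRAP subunits and Tram1 fell, and Sec62 and Sec63 did not pass the test. Few other genes were called here: 0.863% of 15172 genes were lower and 0.0791% higher. That split was 131 lower and 12 higher, or 106 and 30 after each array was shifted so that its brighter probe sets shared a median. The median of the 9 genes was -0.82, that of all genes tested -0.03. All 7 had no overlap between the 3 Ire1 ko and the 4 WT arrays, as 3.64% of all genes tested had in that direction.

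Sec61b again had the largest change, reading 406, 516, 524 and 407 in WT and 173, 156 and 137 in Ire1 ko, with a log2 change of -1.57 (SE 0.13; limma adjusted p = 8.36e-06). Sec61a1 read 882, 963, 1069 and 906 in WT against 506, 465 and 430 in Ire1 ko. Its log2 change was -1.03 (SE 0.11; limma adjusted p = 9.2e-05). For both pore subunits the lowest WT array was far above the highest Ire1 ko array.

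All TRAP subunits were lower in Ire1 ko. Ssr1 read 385, 392, 398 and 379 in WT and 210, 200 and 213 in Ire1 ko (log2 change -0.90; SE 0.08; limma adjusted p = 2.62e-05). Ssr4 read 687, 822, 887 and 796 in WT and 422, 425 and 510 in Ire1 ko (log2 change -0.82; SE 0.10; limma adjusted p = 0.000227). Ssr2 read 44, 42, 39 and 47 in WT and 26, 27 and 27 in Ire1 ko, a tight pair of groups with a log2 change of -0.69 (SE 0.11; limma adjusted p = 0.00547). Ssr3 was closest to the threshold, with 498, 572, 570 and 486 in WT and 399, 361 and 405 in Ire1 ko (log2 change -0.45; SE 0.10; limma adjusted p = 0.0481). Its groups were apart, but its call was lost in 6 of 7 fits that left out 1 array of the 2 groups, where adjusted p-values reached 0.181. By limma the adjusted p was 0.197 under the common median and 0.0873 after quantile normalization. It was 0.0606 without a filter and 0.0696 without an intensity trend. The call was kept with the filter at an intensity of 16, with averaged probe sets, with a replicate block and in one fit over all arrays.

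Tram1 read 672, 690, 819 and 650 in WT and 401, 341 and 351 in Ire1 ko (log2 change -0.96; SE 0.09; limma adjusted p = 2.77e-05). Sec62 read 581, 612, 608 and 637 in WT against 663, 620 and 630 in Ire1 ko, with an interval of the log2 difference from -0.21 to 0.34 (limma adjusted p = 0.944). Sec63 read 87, 67, 97 and 66 in WT and 78, 63 and 51 in Ire1 ko, overlapping, with an interval from -0.64 to 0.02 (limma adjusted p = 0.577). None of the 6 hepatocyte markers was called in this comparison by limma, with 0 at an unadjusted p below 0.05.

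The losses of Xbp1 and of Ire1 were then set against each other as a difference of differences, in one fit over 31 arrays. None of the 9 genes differed by limma, with 0 at an unadjusted p below 0.05, where 0.824% of all 16018 genes tested were called. The estimates, Xbp1 loss minus Ire1 loss, ran from -0.12 for Ssr4 to 0.22 for Sec61b (95% interval -0.10 to 0.54; limma adjusted p = 0.687). The intervals were wide for the dimmer genes, from -0.34 to 0.58 for Ssr2 and from -0.46 to 0.40 for Sec63. For Tram1 the interval was -0.25 to 0.22 and for Sec61a1 -0.25 to 0.40. The signs for Sec61a1, Sec62, Ssr2 and Tram1 turned with the scaling of the arrays.

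**Figure D2:**
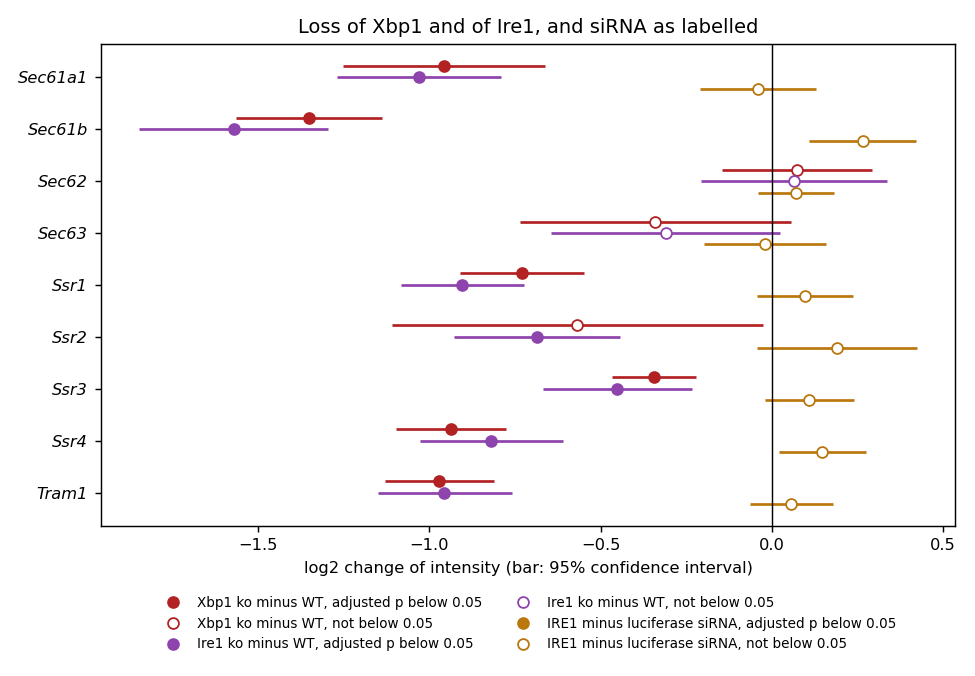
log2 change of intensity with its 95% confidence interval for 9 genes, in Xbp1 ko minus WT, untreated Ire1 ko minus WT and arrays labelled IRE1 siRNA minus those labelled luciferase siRNA; filled points have an adjusted p below 0.05. Sec61b lies furthest to the left in both knockouts (-1.35 and -1.57) while Sec62 lies at 0.07 in both.

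The siRNA experiment asked what IRE1α does when Xbp1 is already missing. As labelled, 0 of the 9 genes were called by limma, against 1.79% of 14030 genes tested, and log2 differences lay between -0.04 and 0.27. The calls over all genes were 160 lower and 91 higher, 282 and 51 under the common median, and 202 and 69 after quantile normalization. At an unadjusted p below 0.05 there were 2 genes, Sec61b and Ssr4, both higher in the arrays labelled IRE1 siRNA, which are those with high Ern1. Over all 14030 genes tested, 1385 were higher and 691 lower at that level. Sec61b read 159, 159, 146 and 168 in the arrays labelled luciferase siRNA and 208, 193, 178 and 181 in those labelled IRE1 siRNA (log2 difference 0.27; SE 0.07; limma adjusted p = 0.123). Ssr4 read 366, 411, 412 and 427 against 467, 438, 433 and 450 (log2 difference 0.15; SE 0.06; limma adjusted p = 0.252). In neither gene did the 2 groups overlap, a separation that 4.23% of all genes tested showed in this direction.

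The other 7 genes overlapped between the siRNA groups. Sec61a1 averaged 420.2 ± 25.6 (SD, n = 4) in the arrays labelled luciferase siRNA and 409.5 ± 33.6 (SD, n = 4) in those labelled IRE1 siRNA, with an interval of the log2 difference from -0.21 to 0.13. Tram1 averaged 287.5 ± 11.4 and 299.2 ± 16.5, with an interval from -0.06 to 0.18, and its sign turned under the common median. Ssr1, Ssr2 and Ssr3 had log2 differences of 0.10, 0.19 and 0.11, with adjusted p-values of 0.523, 0.455 and 0.437 by limma. Among hepatocyte markers Cyp2e1 (-0.29) and Serpina1a (-0.17) were lower in the arrays labelled IRE1 siRNA. Of 5 stellate cell markers 0 were called by limma and 3 were higher at an unadjusted p below 0.05, as were 1385 of 14030 genes tested. The stellate cell markers summed to 709 to 790 in the arrays labelled luciferase siRNA and 810 to 1162 in those labelled IRE1 siRNA. For all these markers, their part in these values was not tested.

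Tunicamycin changed all 9 genes in WT liver: 8 rose and Sec62 fell. The rises ran from 1.27-fold for Tram1 to 2.47-fold for Ssr1. This drug moved much of the transcriptome, with 18.5% of 15172 genes called higher and 17.6% lower (2807 and 2677 genes). Under the common median the split was 2368 higher and 3963 lower, and the median of all genes tested shifted by -0.124 on the log2 scale. The median of the 9 genes was 1.07 and that of all genes tested -0.02, and the changes below stand against that shift.

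TRAP subunits were among the strongest. Ssr1 rose from 385, 392, 398 and 379 to 927, 1048, 1010 and 868, a log2 change of 1.31 (SE 0.08; limma adjusted p = 1.47e-09). Ssr2 rose from 44, 42, 39 and 47 to 118, 96, 94 and 110, a log2 change of 1.28 (SE 0.11; limma adjusted p = 6.4e-08). Ssr3 rose from 531.5 ± 45.9 (SD, n = 4) to 1162 ± 140 (SD, n = 4), a log2 change of 1.12 (SE 0.09). Ssr4 rose less, from 798 ± 83.3 to 1183 ± 96.3, a log2 change of 0.57 (SE 0.09; limma adjusted p = 8.59e-05). The treated arrays lay above the untreated ones for all 4 subunits, as for each of the 8 genes that rose, a separation seen in 16.2% of all genes tested.

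Of the pore subunits, Sec61a1 read 2458, 2217, 2539 and 2034 after tunicamycin, and the lowest of these was above 1069, the highest untreated array. Its log2 change was 1.27 (SE 0.10; limma adjusted p = 5.7e-08). Sec61b read 847, 811, 887 and 772 against 406 to 524 untreated, a log2 change of 0.85 (SE 0.12; limma adjusted p = 2.44e-05). Sec63, the partner that recruits BiP, rose from 87, 67, 97 and 66 to 151, 176, 174 and 157, a log2 change of 1.07 (SE 0.15; limma adjusted p = 1.65e-05).

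Sec62 went the other way, from 581 to 637 over untreated arrays to 376, 321, 461 and 340. Every treated array was lower, and the log2 change was -0.72 (SE 0.12; limma adjusted p = 0.00012). Sec62 and Sec63, which work as a pair, thus changed in opposite directions. Tram1 had the smallest rise, from 672, 690, 819 and 650 to 863, 871, 970 and 878, a log2 change of 0.34 (SE 0.09; limma adjusted p = 0.00408). Its groups were apart, and under the common median it missed the threshold, at 0.22 with an adjusted p of 0.0673. Some cell type markers were called lower in the treated WT livers, as were 17.6% of all genes tested. Of 6 hepatocyte markers 4 were lower, at a summed intensity of 29501 to 29789 against 32375 to 35296. Of 5 Kupffer cell markers 2 were lower, Cd5l and Vsig4, at 352 to 497 against 554 to 1142. Of 5 endothelial markers 3 were lower and 1 higher, and of 5 stellate cell markers 1, Col3a1, was lower. Of 5 measured pancreatic acinar markers 1, Cela1, was lower (-0.99), and that list summed to 64 to 110 against 140 to 197. The stellate cell and acinar counts lay near the share of all genes. The part of these markers in the result was not tested.

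In Ire1 ko liver the same dose raised 1 of the 9 genes and lowered 2. Sec63 rose, while Sec61b and Tram1 fell to 0.672 and 0.735 of the untreated level. The background was 17.4% of genes called higher and 10.3% lower, 2634 and 1570 genes. Under the common median that split was 1883 higher and 3395 lower, with a shift of -0.179 in the median of all genes tested, and after quantile normalization it was 2055 and 2226. Among hepatocyte markers 0 of 6 were called by limma, 1 of them being lower at an unadjusted p below 0.05, while Col3a1 and the endothelial marker Kdr were lower. The count of 3 therefore moved with the setting: it was 5 under the common median, 4 of them lower, with Sec62 and Ssr1 added. It was 6 with an intensity of at least 16 as the filter or with all 31 arrays in the fit, 5 when a gene's probe sets were averaged, and 5 without tunicamycin-treated Ire1 ko replicate 2.

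Sec61b read 173, 156 and 137 in untreated Ire1 ko and 110, 85, 105 and 119 after tunicamycin, all lower, with a log2 change of -0.57 (SE 0.13; limma adjusted p = 0.00294). Tram1 read 401, 341 and 351 and then 269, 281, 247 and 273, again without overlap, with a log2 change of -0.44 (SE 0.09; limma adjusted p = 0.00153). Both rose in WT. Sec63 read 78, 63 and 51 untreated and 120, 112, 98 and 108 treated, a log2 change of 0.79 (SE 0.16; limma adjusted p = 0.00107). Of 3 further Sec63 probe sets, 1 was called here.

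The other 6 genes did not pass the test in Ire1 ko. Sec61a1 read 506, 465 and 430 untreated and 653, 459, 553 and 572 treated, overlapping through replicate 2 of the treated group (log2 difference 0.25; limma adjusted p = 0.118, or 0.0244 without that array). Ssr1 read 210, 200 and 213 untreated and 175, 168, 172 and 196 treated, the treated arrays being lower (log2 difference -0.23; limma adjusted p = 0.0568, or 0.0279 without treated replicate 4). The second Ssr1 probe set did not show this fall, with a log2 difference of 0.08 (limma adjusted p = 0.763). Ssr3 read 399, 361 and 405 and then 505, 433, 444 and 470, the treated arrays being higher (log2 difference 0.25; limma adjusted p = 0.0806). Sec62 had a log2 difference of -0.33 (limma adjusted p = 0.0645, or 0.0184 without treated replicate 2). Of the 9 genes, 4 had all treated arrays lower (Sec61b, Sec62, Ssr1 and Tram1) and 2 had all of them higher (Sec63 and Ssr3), where 10.6% and 18.2% of all genes tested did. Ssr2 and Ssr4 lay near zero, at 0.09 and -0.01, with signs that turned with the scaling.

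The tunicamycin response itself differed between the genotypes for 7 of the 9 genes, all smaller or reversed in Ire1 ko. The interaction was called for 3.95% of all genes tested in this direction and for 3.58% in the other. Ssr1 had the largest difference, -1.53 (SE 0.12; limma adjusted p = 6.29e-07), followed by Sec61b at -1.42 (SE 0.18; limma adjusted p = 8.12e-05), Ssr2 at -1.18 and Sec61a1 at -1.02. Ssr3, Tram1 and Ssr4 followed at -0.87, -0.79 and -0.58, with adjusted p-values of 0.000777, 0.000777 and 0.0139 by limma. Sec62 (0.38; 95% interval 0.01 to 0.75; limma adjusted p = 0.24) and Sec63 (-0.28; 95% interval -0.73 to 0.18; limma adjusted p = 0.565) did not pass, so that a difference in the response of this pair between genotypes was not shown.

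**Figure D3:**
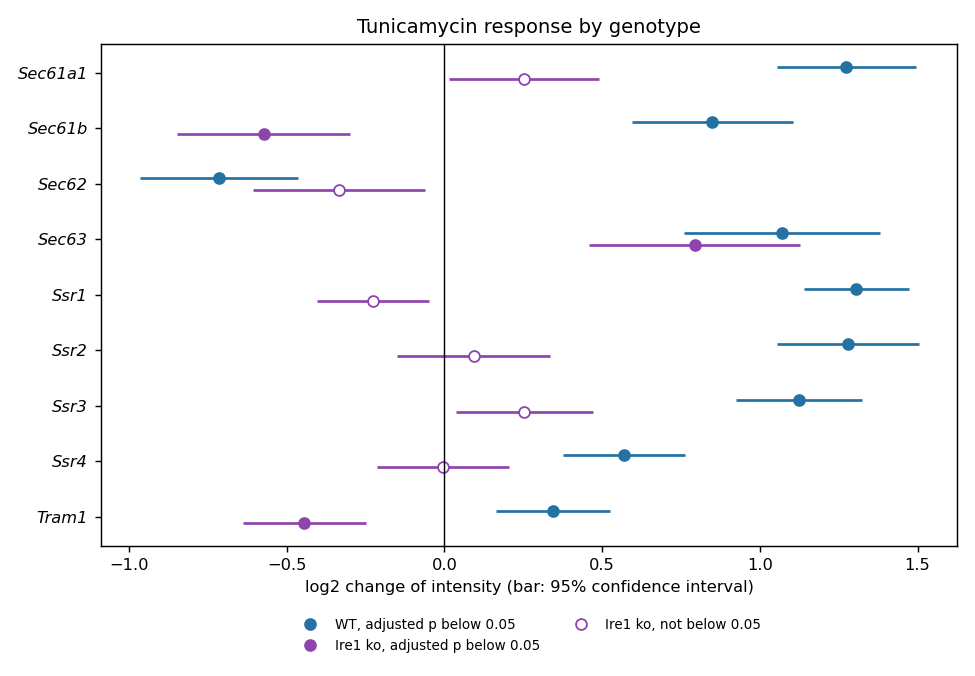
log2 change of intensity after tunicamycin, with its 95% confidence interval, for 9 genes in WT and in Ire1 ko liver; filled points have an adjusted p below 0.05. Ssr1 lies at 1.31 in WT and -0.23 in Ire1 ko, while both intervals for Sec63 lie above zero.

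After tunicamycin, Ire1 ko livers had less of 8 of the 9 genes than WT livers, and more Sec62. This comparison shares its arrays with both tunicamycin responses and is not separate evidence. The background was 8.5% of genes lower and 9.68% higher. Sec61b stood at 0.126 of the WT level (log2 change -2.99; SE 0.12; limma adjusted p = 6.5e-11), Ssr1 at 0.185 (-2.44), Sec61a1 at 0.241 (-2.05), Ssr2 at 0.273 (-1.87) and Tram1 at 0.299 (-1.74). Ssr4, Ssr3 and Sec63 stood at 0.38, 0.40 and 0.665. None of these 8 genes overlapped between the genotypes, a separation that 8.79% of all genes tested showed.

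Measured against untreated WT, 6 genes had every treated Ire1 ko array below every untreated WT array: Sec61a1, Sec61b, Ssr1, Ssr2, Ssr4 and Tram1. The share of all genes separated in this way was not computed, so the count describes the listed genes only. For Sec63 the probe set used went the other way, with 98 to 120 in treated Ire1 ko above 66 to 97 in untreated WT. The further Sec63 probe sets did not show this. Their means in treated Ire1 ko and untreated WT were 56.75 against 71.5, 47 against 51 and 56.75 against 59. Sec62 read 376, 321, 461 and 340 in treated WT and 532, 613, 412 and 486 in treated Ire1 ko, overlapping in 1 array of each. Its log2 change was 0.45 (SE 0.12; limma adjusted p = 0.0134), and without Ire1 ko replicate 2 it was 0.35 with an adjusted p of 0.0511.

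Further probe sets of the same genes, chosen for a look after the values had been seen, gave larger changes for some genes. A second Ssr3 probe set averaged 543.2 in WT and 309.5 in Xbp1 ko, or -0.81 on the log2 scale (limma adjusted p = 0.000207), against -0.34 for the first. In untreated Ire1 ko it gave -0.90 (limma adjusted p = 0.000834), so that both probe sets were called and the size of the change differed between them. The 3 further Sec61a1 probe sets gave log2 changes of -1.09, -1.46 and -1.58 in Xbp1 ko, all called. For Sec63, 3 further probe sets gave -0.81, -0.70 and -0.77 in Xbp1 ko, with adjusted p-values of 0.0836, 0.0106 and 0.0294 by limma. In untreated Ire1 ko they gave -0.53, -0.94 and -0.54, of which -0.94 was called (limma adjusted p = 0.000691). With the mean of all its probe sets Sec63 was called in both knockouts, at -0.66 in Xbp1 ko (limma adjusted p = 0.027) and -0.58 in untreated Ire1 ko (limma adjusted p = 0.0162). After tunicamycin in WT the 3 further Sec63 probe sets gave 0.30, 0.56 and 0.52 (limma adjusted p = 0.114, 0.00104 and 0.0273), each smaller than the 1.07 of the probe set used. In Ire1 ko they gave 0.21, 0.83 and 0.47 after tunicamycin (limma adjusted p = 0.367, 0.000102 and 0.0736), so that 2 of the 3 did not pass there. In the same comparison the second Ssr3 probe set was called at 0.47 (limma adjusted p = 0.00793), and so was 1 of the further Sec61a1 probe sets, at 0.62 (limma adjusted p = 0.00161). A second, dim Ssr4 probe set averaged 8.75 in WT and 8.5 in Xbp1 ko, with a log2 difference of 0.03. It rose from 9.25 to 27.75 after tunicamycin in WT, a log2 change of 1.53 (limma adjusted p = 1.14e-05), against 0.57 for the probe set used.

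Other genes of protein entry into the ER were read from lists made by function, in the order of the route. In Xbp1 ko, where 2.07% of all genes tested were called lower, 2 of 6 measured genes of the signal recognition particle and its receptor fell. They were Srp9 (-0.63; SE 0.05) and Srp72 (-0.42; SE 0.08). Signal peptidase fell for 3 of 4 measured genes, with the catalytic subunit Sec11c at -1.44 (SE 0.12), Spcs2 at -0.96 and Spcs3 at -0.79. The other catalytic subunit listed, Sec11a, had no value here. Of the lumenal chaperone system at the pore 2 of 4 fell, the BiP exchange factors Hyou1 (-1.41; SE 0.10) and Sil1 (-1.10; SE 0.10). None of 6 partners of the pore for multispanning proteins, of 6 genes for tail-anchored proteins and of 9 ER membrane complex genes was called by limma, with 1, 0 and 2 of them at an unadjusted p below 0.05. Their medians were 0.11, 0.00 and -0.06, beside 0.01 for all genes tested. Of all 14008 genes tested, 1050 were higher and 907 lower at an unadjusted p below 0.05. The paralogues Sec61a2 and Tram2 were 0 of 2 called, with 0 at an unadjusted p below 0.05.

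In untreated Ire1 ko the same lists had 4 of 6, 3 of 4 and 2 of 4 genes lower, beside 0.863% of all genes tested. Srp9 stood at -0.55, Srp72 at -0.45, Sec11c at -1.23, Spcs2 at -1.20, Spcs3 at -0.98, Hyou1 at -1.38 and Sil1 at -0.47. The other 2 signal recognition genes that fell were Srp54a (-0.54) and Srpr (-0.52). One ER membrane complex gene of 9 was lower, Mmgt1 (-0.58; SE 0.12). These 3 were named after their values were seen. As labelled, IRE1 siRNA called 0 of 6 and 0 of 4 genes of the first 2 lists by limma, with 2 and 0 at an unadjusted p below 0.05, and 1 of 4 of the third, Sil1 at -0.43 (SE 0.07; limma adjusted p = 0.0233). The loss of Xbp1 lowered Sil1 more than the loss of Ire1 did, by 0.63 on the log2 scale (SE 0.14; limma adjusted p = 0.0143). Of the 6 multipass partners 2 were called as labelled, Ncln lower (-0.64; SE 0.11; limma adjusted p = 0.0326) and Tmem147 higher (0.29; SE 0.06; limma adjusted p = 0.0481) in the arrays labelled IRE1 siRNA. Ncln also differed between the losses of Xbp1 and Ire1, by -0.88 (SE 0.20; limma adjusted p = 0.0216). Ncln and Tmem147 were named after their values were seen. In the tail-anchored and ER membrane complex lists 0 of 6 and 0 of 9 were called by limma as labelled, with 1 and 4 at an unadjusted p below 0.05. Of all 14030 genes tested as labelled, 1.79% were called. At an unadjusted p below 0.05, 1385 of them were higher and 691 lower.

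After tunicamycin in WT, 6 of 6 signal recognition genes, 4 of 4 signal peptidase genes and 4 of 4 lumenal chaperone genes rose, with medians of 1.01, 0.84 and 1.61. In Ire1 ko the counts were 3 of 6, 2 of 4 and 4 of 4, with medians of 0.31, 0.24 and 1.88. Of all genes tested, 18.5% were called higher after tunicamycin in WT and 17.4% in Ire1 ko. The interaction was negative and called for 6 of 6 and 3 of 4 genes of the first 2 lists. Over all genes tested it was called for 3.95% in this direction and 3.58% in the other. In the third it was called for 1 of 4 and was positive: Hyou1 rose by 1.93 (SE 0.17) in WT and 2.89 (SE 0.19) in Ire1 ko (difference 0.96; SE 0.25; limma adjusted p = 0.0292). Compared after tunicamycin, Ire1 ko was lower for 6 of 6 and 4 of 4 genes of the first 2 lists, beside 8.5% of all genes tested lower and 9.68% higher. In the third list 0 of 4 were called by limma, where 3 were lower and 1 higher at an unadjusted p below 0.05. Hspa5, which encodes BiP, rose by 2.00 (SE 0.09) in WT and 1.97 (SE 0.10) in Ire1 ko, and was named here as the partner of Sec63. Of the genes for tail-anchored proteins 3 of 6 were lower in treated Ire1 ko than in treated WT, Get3 (-0.67), Get4 (-0.69) and Caml (-0.60), named after their values were seen. The other lists were mixed in that comparison. Of 9 ER membrane complex genes 2 were lower, Mmgt1 at -1.19 among them, and 2 higher. Of 6 multipass partners 1 was lower, Nomo1 (-0.59), and 1 higher, Tmem147 (0.38).

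**Figure D4:**
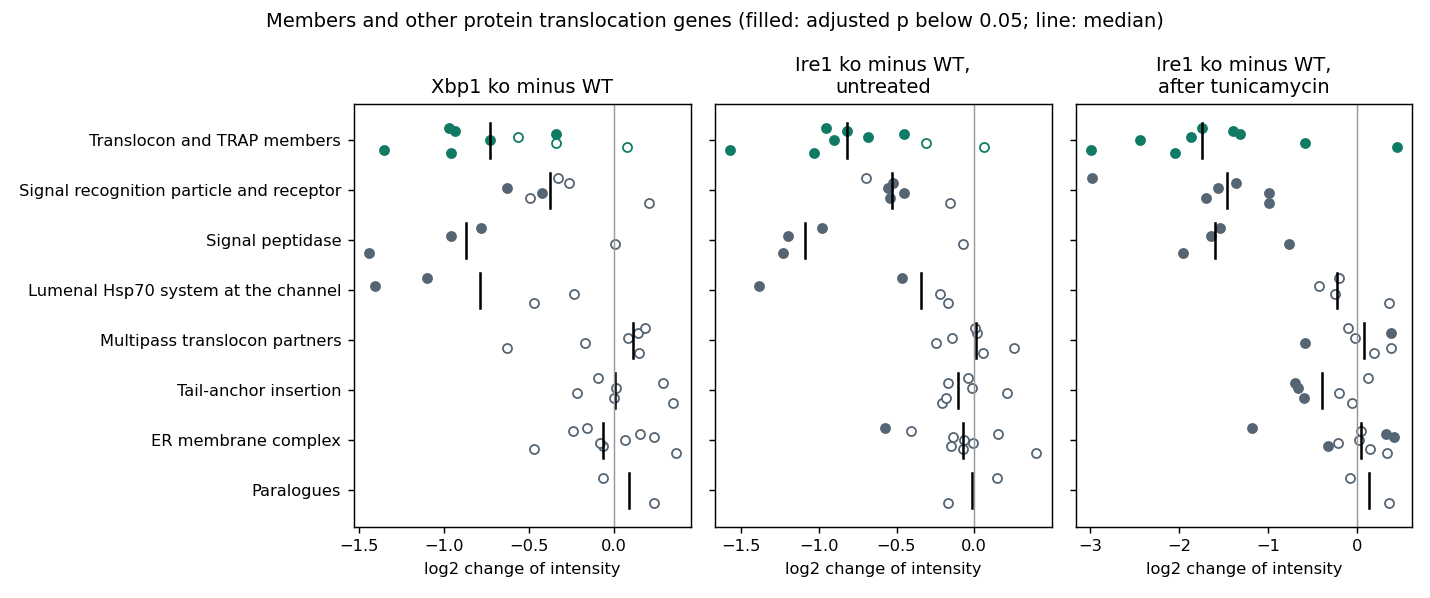
log2 change of intensity of each gene in the translocon and TRAP set and in 7 further lists, in Xbp1 ko minus WT, untreated Ire1 ko minus WT and Ire1 ko minus WT after tunicamycin; filled points have an adjusted p below 0.05 and lines mark medians. The set's medians lie at -0.73, -0.82 and -1.74, while those of the multipass partners lie at 0.11, 0.01 and 0.08.

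Within the set, correlations over the 8 group means of log2 intensity describe how alike the genes were, with the tunicamycin-treated WT group weighing on each value. Against the mean of the other members, r was 0.990 for Ssr1, 0.983 for Ssr4, 0.979 for Ssr2, 0.962 for Sec61a1, 0.931 for Sec61b and for Ssr3, and 0.918 for Tram1. Sec63 had 0.677 and Sec62 -0.750, and Sec62 against Sec63 had -0.978. Of 5905 other genes ranked, the 8 most like the mean of the members were Lman2 (0.996), a lectin that carries glycoproteins, Ufl1 (0.994), a ligase of the ubiquitin-like protein UFM1, Srp9 (0.992), Smim14 (0.991), the cargo receptor Surf4 (0.983), the oligosaccharyltransferase genes Stt3a (0.983) and Ostc (0.981), and Spcs3 (0.980). Ufl1 was dim, with a highest group mean of 5.15 on the log2 scale.

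Kupffer cell markers reached 16 for 4 of 5 in every group, endothelial markers for 4 or 5 of 5 and stellate cell markers for 2 to 4 of 5. Markers of cholangiocytes, B and T cells, neutrophils and plasma cells were mostly near the floor. Of the measured cholangiocyte markers and of the B and T cell markers 0 of 4 reached 16 in any group, and neutrophil markers did so for 1 of 4 in Xbp1 ko alone, where 1 array had a summed intensity of 82 against 19 to 21 in WT. In the plasma cell list, of interest because such cells are rich in ER, the markers Jchain and Tnfrsf17 had a mean under 16 in every group. Derl3, which is on that list and also belongs to the degradation of ER proteins, rose after tunicamycin by 6.26 (SE 0.36) in WT and 5.55 (SE 0.39) in Ire1 ko. Stellate cell markers summed to 608 to 798 in WT and 764 to 992 in Xbp1 ko with 0 of 5 called by limma, 1 being higher at an unadjusted p below 0.05.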

How the data were processed

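Total liver RNA was labelled with biotin and hybridised to a mouse Affymetrix array of perfect-match probes, per the labels. The authors deposited linear probe set intensities in whole numbers, made with RMA and the affy package per the submitters' processing notes, which give no versions. Log2 of the deposited intensity was taken here. Of 45037 probe sets, 28898 had 1 gene symbol in the platform annotation, 551 had several and 15588 had none listed. Each gene kept its probe set with the highest mean over all arrays, and 16936 of 17097 symbols matched RefSeq.

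Each experiment was fitted by itself with limma 3.58.1 (lmFit, eBayes with an intensity trend) in R 4.3.3, on 8 arrays for the Xbp1 and siRNA experiments and 15 for the Ire1 experiment. A gene was tested if above the 30th percentile of its array on at least 3 arrays. P-values were two-sided and adjusted by Benjamini-Hochberg over all genes tested, and a call is an adjusted p below 0.05. The fits were tested on simulated data. The number of arrays limits the precision.

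All listed genes are named, with Xbp1 and Ern1 as the targeted genes. Of each further list, up to 3 genes are named, those with the largest change among genes called in Xbp1 ko. The genes ranked for likeness had a range of at least 0.5 over the 8 log2 group means. Members and lists were chosen with earlier results of these data known. Alternatives were 2 other scalings, 2 other filters, the mean of all probe sets, no trend, a replicate block, other arrays in the fit and leaving out each array. Further probe sets of the members were added after seeing the data.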

Additional observations from a re-analysis of the deposited data

Results flagged for a closer look

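On 2 of 63 gene and group combinations of 4 arrays, 1 array stood apart from the other 3, where chance flags about 1 in 20. Sec63 read 54 in WT replicate 4 of the Xbp1 experiment, against 89 to 91 in the other 3 arrays. Tram1 read 970 in tunicamycin-treated WT replicate 3, against 863 to 878 in the others. For 7 genes the response to tunicamycin differed between Ire1 ko and WT by limma's interaction term, by -1.022 on the log2 scale for Sec61a1, -1.422 for Sec61b, -1.533 for Ssr1, -1.184 for Ssr2, -0.872 for Ssr3, -0.576 for Ssr4 and -0.787 for Tram1. Strain differs with genotype in that experiment and cannot be told apart from it.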

How the results depend on the processing

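The count of genes called for tunicamycin in Ire1 ko was 3 and became 5 under a common median over brighter probe sets, 6 with an intensity of at least 16 as the filter, 5 with the mean of all probe sets and 6 in one fit over all 31 arrays. Leaving out 1 array gave 3 to 5, with 5 without tunicamycin-treated Ire1 ko replicate 2. In the other 7 comparisons the count stayed within 1.5 times its value under every alternative run. Ssr4 in Xbp1 ko changed sign with its second-brightest probe set, to 0.025 (limma adjusted p = 1), a dim probe set. Averaging all probe sets of a gene, dim ones included, ended the calls of Ssr4 in Xbp1 ko (adjusted p = 0.433) and in untreated Ire1 ko (0.21), of Sec62 and Tram1 after tunicamycin in WT (0.329 and 0.603) and of Sec62 between genotypes after tunicamycin. The same average gave Sec63 a call in Xbp1 ko (-0.655; adjusted p = 0.027) and in untreated Ire1 ko (-0.58; 0.0162), and Sec61a1 and Ssr3 one for tunicamycin in Ire1 ko (0.0092 and 0.0113). Over single genes, 549 values under other scalings, filters and fits kept their side of the threshold, 16 gained a call and 11 lost one. For left-out arrays these numbers were 673, 4 and 7. Direction was compared only for values called in either fit, so uncalled values whose sign turned are counted as kept. With a replicate block the members called were 5 in Xbp1 ko, 0 for siRNA, 7 in untreated Ire1 ko, 9 and 4 for tunicamycin in WT and Ire1 ko, 9 between genotypes after tunicamycin, 7 for the interaction and 0 for Xbp1 against Ire1 loss; Ssr3 in Xbp1 ko lost its call (adjusted p = 0.0706). Same-numbered arrays shared only a number: their deviations correlated between -0.181 and 0.294, and in no pair of groups was every value over 0.1 or did every array correlate best with its own number. Rounding to whole numbers limits Ssr2 and the dim probe sets most.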

Other observations

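Probe sets of one gene did not always rank the untreated WT groups of the Xbp1 and Ire1 experiments alike. Of 18 probe sets of these genes that reach 16 in some group, 6 did not overlap between the 2 groups. The Sec61a1 probe set used in the report was lower in the Xbp1 experiment, at 780.8 ± 104 against 955 ± 83.2 (SD, n = 4 each; log2 difference -0.30). A dimmer Sec61a1 probe set was higher there, at 149 ± 25 against 54.25 ± 4.19 (log2 difference 1.45), and another stood at 73.25 ± 4.92 against 33.5 ± 3.11 (1.13). One of the Sec63 probe sets read 108.5 ± 12.5 against 51 ± 5.29 (1.09), and the second Ssr1 probe set 182.8 ± 24.6 against 116.2 ± 19.5 (0.66). For comparison, 9869 probe sets of any gene had a mean over all arrays of at least 16, a stricter rule than for the 18. Of these, 3.07% were higher in the Xbp1 experiment by a log2 difference of at least 1. Without overlap, 12.5% were higher there and a separate 16.6% were lower. The cause was not tested.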
